A study of Mus musculus with 12 samples.

Results

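The genes described here lie on mouse chromosome 11 on either side of miR-146a, the miRNA whose gene was deleted in these mice. They are the genes of the deposited expression data that start within 20 Mb of the miR-146a hairpin, without Timd4, Tnip1, Irgm1, Irgm2, Igtp, Tgtp1, Tgtp2, Il12b, Rel, Rps27a and Uqcrq. This rule gave 294 genes of 15393 in all, of which 58 lay towards the centromere and 236 towards the telomere. The members were chosen by position, less the 11 genes named, with earlier results of these data known. The question was whether genotype differences on each diet changed with distance from the deleted locus.

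Adipose tissue macrophages (ATMs) were sorted as CD45+ CD11b+ F4/80+ cells from the stromal vascular fraction (SVF) of adipose tissue of 20-week-old mice, and their RNA was sequenced. The groups were miR-146a-/- mice on normal chow diet (NCD), WT mice on NCD, miR-146a-/- mice on high-fat diet (HFD) and WT mice on HFD, making 4 groups of 3 libraries. Cells of 3 mice were pooled for a library, so p-values measure the spread between pools. The diets were fed for 14 weeks from 6 weeks of age. The deletion is in the germline, so cells other than macrophages lacked the miRNA too, and both genotypes are described as being on a C57BL/6 background. The strain of the embryonic stem cells in which the allele was made is not given in the sources used here.

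A deletion made in embryonic stem cells is carried into a laboratory strain by repeated backcrossing. Alleles close to a selected locus are inherited with it, so a stretch of donor chromosome can stay around the deletion and shrinks only as recombination breaks it. When donor and recipient strains differ, genes in such a stretch can differ in expression between the knockout and the WT colony for reasons of sequence and not of the miRNA. Only expression values were analysed here, so the strain origin of the chromosome was not tested. In addition, miR-146a restrains signalling downstream of Toll-like and interleukin-1 receptors in macrophages. Whether such signalling had a part in differences of genes of this region was not tested.

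The hairpin lies on the minus strand at chr11:43374397-43374461 of GRCm38.p6, and RefSeq gives the sequences below. Capitals mark bases 2 to 8 of each mature miRNA, the seed, which pairs with target mRNAs, and in the hairpin they mark the seed of the 5p arm.

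miR-146a-5p: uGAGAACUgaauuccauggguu

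miR-146a-3p: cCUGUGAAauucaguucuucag

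Mir146 hairpin: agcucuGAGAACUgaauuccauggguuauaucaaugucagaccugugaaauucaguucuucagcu

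The locus itself was not analysed here, since it has 0 rows in the expression data, and the deletion could therefore not be checked from these values.

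Expression was given as FPKM, fragments per kilobase of gene scaled to the counted reads of the library, from 9998868 to 11559282 counted reads per library. Of the 294 members, 238 averaged 1 FPKM or more across the 12 libraries and were tested, and 56 did not reach it. The 238 tested members had a median level of 8.25 FPKM, against 7.997 FPKM for all 12119 genes tested. Fold changes are differences of log2(FPKM + 1), miR-146a-/- minus WT, which understate changes of genes near or below 1 FPKM. A gene was called when its p-value, adjusted over all 12119 genes, was under 0.05. Genotype was compared on NCD, on HFD, and as the mean of both effects ("over both diets"). The last shares its libraries with the first 2. The means compared on NCD and on HFD share no library, but all comparisons share an estimate of the spread from the 12 libraries.

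The 7 measured macrophage markers (among them Csf1r, Cd68 and Lyz2) summed to 8047 to 9194 FPKM in the miR-146a-/- libraries and 8165 to 9334 FPKM in the WT libraries. Lyz2 alone, at 6715 to 8147 FPKM, made up most of each sum. Csf1r was at 504, 568 and 513 FPKM in miR-146a-/- HFD, against 630, 593 and 641 FPKM in WT HFD. Fcgr1 was also below WT on HFD without overlap, while Ptprc was above it. On NCD Csf1r was above WT without overlap. None of the 7 was called for genotype. The 12 neutrophil markers stood apart. They summed to 574 to 1643 FPKM in miR-146a-/- NCD, against 110.5 to 148 FPKM in WT NCD. On HFD they summed to 19430 FPKM in miR-146a-/- replicate 1, to 546 and 505 FPKM in its other replicates, and to 51.5 to 69.4 FPKM in WT. In that replicate S100a8 and S100a9 gave 7389 and 9191 FPKM of the sum. Of the 10 tested, Ngp, Ltf and Camp were called over both diets (0.413% of all genes) and on HFD (0.627%). Camp was also called on NCD (0.124%). All 10 had a log2 fold change above 0 over both diets, and Mpo and Elane were too low to be tested. The 5 measured erythroid markers were also highest in miR-146a-/- HFD replicate 1, at 262 FPKM. Where leaving out this library changed the call over both diets of a member named below, or moved its printed fold change by over 1.5 times, the value without it is given too. Other cell types differed as well. The 5 endothelial markers, of which 4 were tested, summed to 11.9 to 22.6 FPKM in miR-146a-/- NCD, against 3.23 to 7.89 FPKM in WT NCD. On HFD they summed to 7.95 to 21.4 FPKM in miR-146a-/-, against 4.45 to 5.98 FPKM in WT. Only Pecam1 was above WT in every miR-146a-/- HFD library, and it gave 19.0 of the 21.4 FPKM in replicate 1. Cdh5, Kdr and Cldn5 overlapped between genotypes on HFD, and Emcn was below WT. The 4 NK cell markers summed to 84.8 to 122 FPKM in miR-146a-/- NCD, against 35.5 to 62.4 FPKM in WT NCD, and overlapped on HFD. None of these endothelial and NK cell markers was called for genotype. The part of these cells in the differences between members was not tested. In bulk RNA, fewer cells of a type and less RNA per cell cannot be told apart.

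Across the window, the genes called for genotype over both diets lay 5.64 Mb to 15.6 Mb from miR-146a. Over both diets, 9 of 238 members were called (3.78%), against 0.413% of all genes tested. All 9 lay on the telomeric side and 0 lay within 5 Mb of the hairpin. Whether the sides differ was not tested. Of the 9, 7 were lower in miR-146a-/- ATMs, where the share of all genes is 0.248%, and 2 were higher, where it is 0.165%. The genes that fell were 9930111J21Rik2, Pdlim4, Rapgef6, Tbc1d9b, Il4, Slc36a1 and Gpx3, and the genes that rose were Hist3h2ba and Slc22a4. On NCD, 2 members were called, 9930111J21Rik2 and Pdlim4, against 0.124% of all genes, and both were lower, where the share is 0.066%. On HFD, 7 members were called, against 0.627% of all genes. Of these, 9930111J21Rik2, Pdlim4, Tbc1d9b, Rapgef6, Gpx3 and Sptbn1 were lower, where the share of all genes is 0.347%, and Slc22a4 was higher, where it is 0.281%. Sptbn1, at 13.3 Mb, was the only member called towards the centromere.

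**Figure D1:**
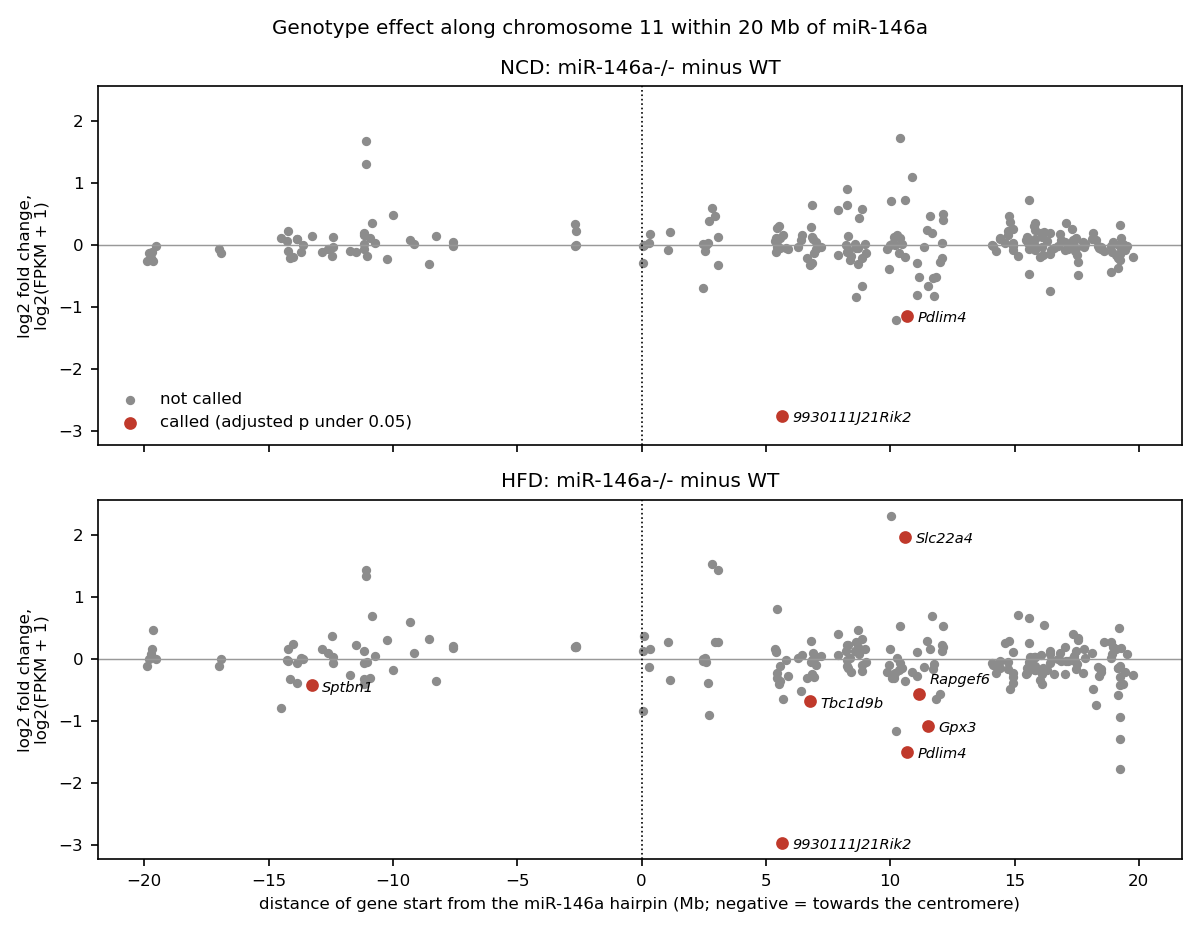
Log2 fold change, miR-146a-/- minus WT, of the 238 tested members (points) against the distance of the gene start from the miR-146a hairpin in Mb, with negative distances towards the centromere, on NCD (top) and HFD (bottom). Red points are called, and they are 2 genes on NCD and 7 on HFD, with 9930111J21Rik2 lowest at -2.75 and -2.96 and no red point within 5 Mb of the dotted line that marks the hairpin. Pttg1, at 0.05 Mb, fell short of a call on HFD (adjusted p = 0.0544).

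The count of 9 depended on single libraries. It was 15 without miR-146a-/- HFD replicate 1, where the share of all genes became 1.11%, and 4 without WT HFD replicate 1, where it became 0.173%. It was 5 without miR-146a-/- NCD replicate 3, WT NCD replicate 3 or WT HFD replicate 2, with shares of all genes of 0.214% to 0.231%. Of the 9, the genes 9930111J21Rik2, Pdlim4, Rapgef6 and Tbc1d9b were called whichever library was left out. Likewise, the 7 members called on HFD became 3 when any single WT HFD library was left out (0.0989% to 0.239% of all genes). They became 4 without WT NCD replicate 3 or any single miR-146a-/- NCD library (0.149% to 0.29% of all genes). The 2 members called on NCD became 1 when any single NCD library or WT HFD replicate 2 was left out (0.0413% to 0.0824% of all genes). They became 7 without miR-146a-/- HFD replicate 1, where the share of all genes rose to 0.445%.

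9930111J21Rik2 is a member of the immunity-related GTPase family, interferon-inducible GTPases that act on the vacuoles of intracellular pathogens, and RefSeq lists it under the synonym Irgb5. It lies on the minus strand at chr11:49015874-49051242, 5.64 Mb from miR-146a. It was at 0.0968, 0.0650 and 0.103 FPKM in miR-146a-/- NCD, against 6.48, 6.93 and 5.61 FPKM in WT NCD. On HFD it was at 0.0254, 0.0863 and 0.178 FPKM in miR-146a-/-, against 7.94, 7.69 and 6.98 FPKM in WT. The gene was thus close to 0 in all 6 miR-146a-/- libraries and above 5 FPKM in all 6 WT libraries, on either diet. In whole reads these values were 42 reads over the 6 miR-146a-/- libraries and 3147 reads over the 6 WT libraries. Its log2 fold change over both diets was -2.86 ± 0.08 (SE, adjusted p = 6.07e-09), and the mean FPKM was 75.1-fold lower in miR-146a-/-. With limma voom, which adds no constant of 1, the log2 fold change was -6.32.

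The gene next to it, 9930111J21Rik1 (synonym Iigp), is a close copy. The 250 bases before the start of 9930111J21Rik2 are shown because the copies cannot be told apart there. The sequence lies at chr11:49051243-49051492 on the minus strand (RefSeq, GRCm38.p6). Capitals mark the 233 bases that also stand, without a mismatch, in the promoter window of 9930111J21Rik1, and the 17 bases in lower case lie before that window.

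9930111J21Rik2 upstream: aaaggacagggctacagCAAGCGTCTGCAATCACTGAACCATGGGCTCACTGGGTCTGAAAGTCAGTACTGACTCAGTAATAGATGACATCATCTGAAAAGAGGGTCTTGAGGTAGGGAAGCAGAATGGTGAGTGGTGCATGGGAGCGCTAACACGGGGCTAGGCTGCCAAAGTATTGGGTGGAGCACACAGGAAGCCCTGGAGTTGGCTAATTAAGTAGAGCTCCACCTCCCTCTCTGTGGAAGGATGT

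Despite the shared sequence, 9930111J21Rik1 was at 4.24 to 6.72 FPKM in the miR-146a-/- libraries and 4.88 to 6.95 FPKM in the WT libraries, with overlapping groups. Its log2 fold change over both diets was 0.00 ± 0.09 (SE, adjusted p = 0.999), and 0.04 without miR-146a-/- HFD replicate 1. Of the distinct 50-base stretches of 9930111J21Rik2 transcripts, the length of a read, 59.2% also occur in transcripts of other genes, among them 9930111J21Rik1, Gm12185 and Gm5431. For 9930111J21Rik1 the share is higher, 82.9%, and Gm12185 and Psme2b overlap it on the same strand. The levels of these copies are therefore uncertain where reads could be assigned to either. The family members Gm5431 and Gm12250 overlapped between genotypes over the 12 libraries. Gm5431 was at 7.23 to 14.9 FPKM in miR-146a-/- and 9.40 to 13.6 FPKM in WT, and Gm12250 (Irgb10) was at 5.44 to 12.9 FPKM in miR-146a-/- and 7.94 to 13.4 FPKM in WT.

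**Figure D2:**
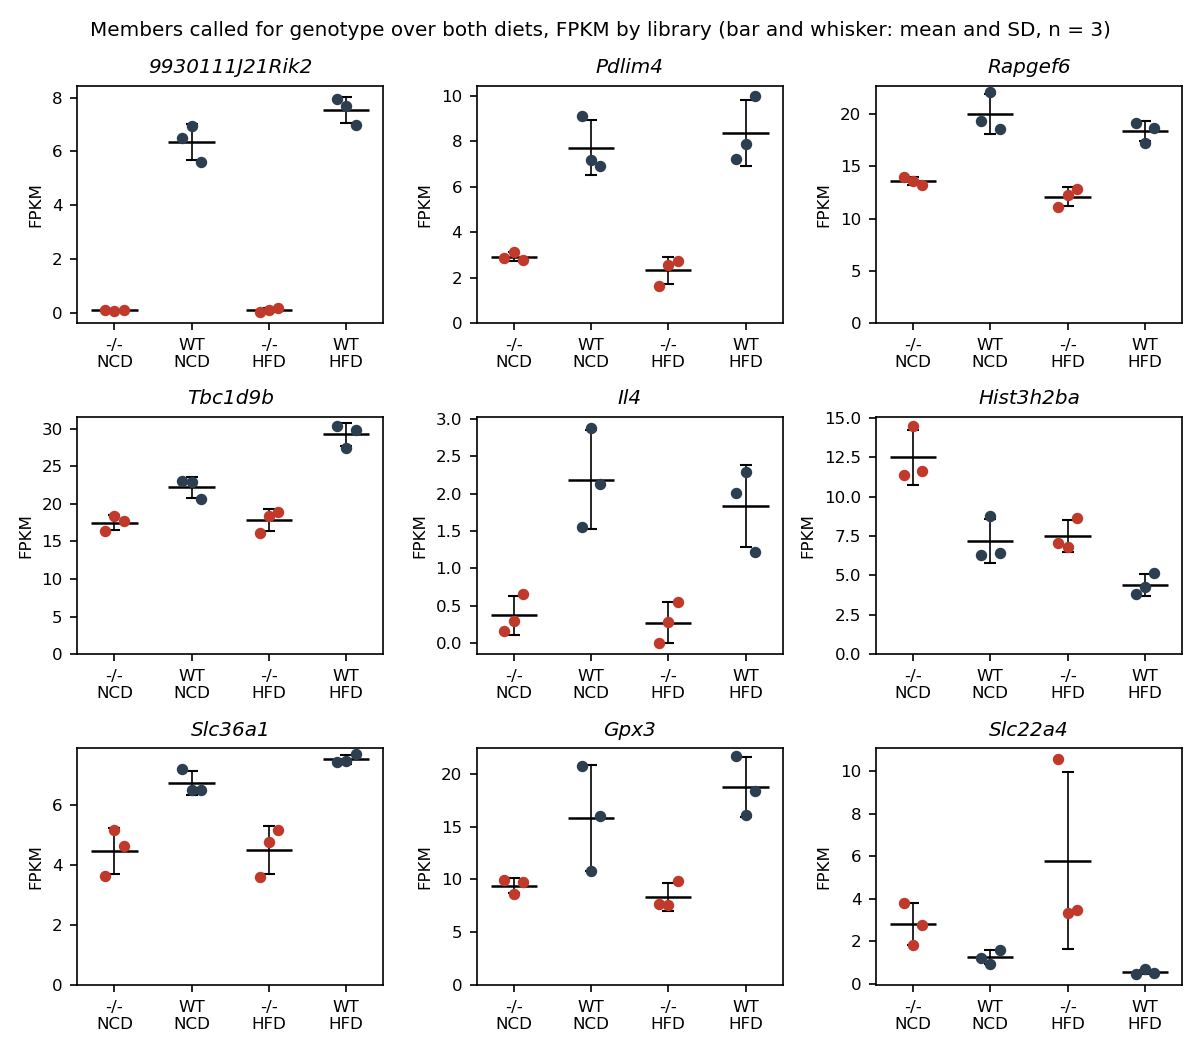
FPKM in each library (points) of the 9 members called over both diets, with miR-146a-/- in red to the left of WT in dark blue on NCD and then on HFD; bars and whiskers are means and SDs of 3 libraries. In each panel the genotypes do not overlap within a diet, and Slc22a4 has a miR-146a-/- HFD library at 10.6 FPKM while the others lie at 3.32 and 3.47 FPKM.

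Pdlim4, a PDZ and LIM domain protein that binds the actin cytoskeleton, lies at 10.7 Mb. It was at 2.88, 3.14 and 2.75 FPKM in miR-146a-/- NCD, against 9.09, 7.17 and 6.88 FPKM in WT NCD. HFD samples held 1.64, 2.57 and 2.74 FPKM in miR-146a-/-, against 7.21, 7.88 and 10.001 FPKM in WT. All 6 miR-146a-/- libraries were below all 6 WT libraries. Its change on the log2 scale was -1.14 on NCD (adjusted p = 0.0276), -1.50 on HFD (adjusted p = 0.00240) and -1.32 ± 0.11 over both diets (SE, adjusted p = 2.72e-04).

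Its neighbour Slc22a4, which encodes the ergothioneine transporter OCTN1 and lies at 10.6 Mb, went the other way. It was at 3.80, 1.82 and 2.76 FPKM in miR-146a-/- NCD, against 1.19, 0.936 and 1.61 FPKM in WT NCD. HFD samples held 10.6, 3.32 and 3.47 FPKM in miR-146a-/-, against 0.482, 0.687 and 0.509 FPKM in WT. The genotypes did not overlap on either diet, and the highest value was in the library with the highest neutrophil markers. Over both diets the log2 fold change was 1.35 ± 0.24 (SE, adjusted p = 0.0434). Without miR-146a-/- HFD replicate 1 it was 1.11 (adjusted p = 0.00419), while it was no longer called when any single NCD or WT HFD library was left out (adjusted p up to 0.128) or with limma voom (adjusted p = 0.133). The part of neutrophil RNA in this difference was not tested. The adjacent Slc22a5, a carnitine transporter, was at 5.66 to 8.14 FPKM in miR-146a-/- and 6.46 to 8.35 FPKM in WT, and did not pass the test (log2 fold change -0.07).

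Rapgef6, an exchange factor for Rap GTPases, lies at 11.1 Mb. It was at 14.0, 13.6 and 13.3 FPKM in miR-146a-/- NCD, against 19.3, 22.1 and 18.6 FPKM in WT NCD, and at 11.1, 12.3 and 12.9 FPKM in miR-146a-/- HFD, against 19.2, 17.3 and 18.6 FPKM in WT HFD. The log2 fold change over both diets was -0.54 ± 0.06 (SE, adjusted p = 0.00258). Tbc1d9b, a GTPase-activating protein for Rab proteins of membrane traffic, lies at 6.76 Mb. It was at 16.4, 18.4 and 17.7 FPKM in miR-146a-/- NCD, against 23.0, 23.0 and 20.6 FPKM in WT NCD. The HFD values were 16.1, 18.4 and 19.0 FPKM in miR-146a-/-, against 30.4, 27.5 and 29.9 FPKM in WT. All 6 miR-146a-/- values of either gene were below all 6 WT values. The log2 fold change of Tbc1d9b over both diets was -0.51 ± 0.06 (SE, adjusted p = 0.00374). An annotated antisense gene, Gm12195, overlaps Tbc1d9b, and whether counting used the strand is not given in the sources used here.

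Il4 encodes the type 2 cytokine interleukin-4 and lies at 10.2 Mb. It was at 0.158, 0.297 and 0.662 FPKM in miR-146a-/- NCD, against 1.55, 2.88 and 2.13 FPKM in WT NCD. The HFD values were 0, 0.282 and 0.549 FPKM in miR-146a-/-, against 2.00, 2.29 and 1.22 FPKM in WT. These values rest on few reads, 26 over the 6 miR-146a-/- libraries and 160 over the 6 WT libraries, but the genotypes did not overlap on either diet. The log2 fold change over both diets was -1.18 ± 0.17 (SE, adjusted p = 0.0133), with adjusted p = 0.0521 without WT HFD replicate 1 and 0.0511 with a pseudocount of 0.1. Mast cells are a known source of this cytokine, and the 6 mast cell markers summed to 131 to 266 FPKM in miR-146a-/- NCD, against 175 to 357 FPKM in WT NCD, and to 13.2 to 36.6 FPKM in miR-146a-/- HFD, against 21.9 to 41.6 FPKM in WT HFD. Thus the mast cell markers overlapped between genotypes on each diet, 0 of 6 were called for genotype, and none was at 0 in a whole group. All 6 had a log2 fold change below 0 over both diets, with a median of -0.45, which is the direction of Il4. Their part in the Il4 difference was not tested.

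Slc36a1, a lysosomal amino acid transporter at 11.8 Mb, was at 3.64, 5.14 and 4.64 FPKM in miR-146a-/- NCD, against 7.19, 6.47 and 6.50 FPKM in WT NCD, and at 3.60, 4.75 and 5.15 FPKM in miR-146a-/- HFD, against 7.40, 7.45 and 7.68 FPKM in WT HFD. The miR-146a-/- libraries were all below the WT libraries, with a log2 fold change over both diets of -0.57 ± 0.09 (SE, adjusted p = 0.0223). Gpx3, a secreted glutathione peroxidase at 11.5 Mb, was at 9.898, 8.60 and 9.71 FPKM in miR-146a-/- NCD, against 20.8, 10.8 and 15.997 FPKM in WT NCD, and at 7.67, 7.54 and 9.87 FPKM in miR-146a-/- HFD, against 21.7, 16.1 and 18.4 FPKM in WT HFD. WT NCD replicate 2 lay nearest to the miR-146a-/- libraries. Over both diets the log2 fold change was -0.86 ± 0.14 (SE, adjusted p = 0.0252). The 6 fibroblast markers summed to 176 to 468 FPKM in miR-146a-/- and 236 to 698 FPKM in WT, with 0 of 6 called and none at 0 in a whole group. All 6 had a log2 fold change below 0 over both diets, with a median of -0.63. Their part in the Gpx3 difference was not tested.

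Hist3h2ba, a histone H2B gene at 15.6 Mb, was the farthest member called over both diets. It was at 11.4, 14.5 and 11.6 FPKM in miR-146a-/- NCD, against 6.28, 8.76 and 6.45 FPKM in WT NCD. HFD samples held 7.02, 6.82 and 8.66 FPKM in miR-146a-/-, against 3.81, 4.23 and 5.15 FPKM in WT. Over both diets the log2 fold change was 0.69 ± 0.10 (SE, adjusted p = 0.0177). Of its distinct 50-base stretches, 22.1% also occur in other genes, mainly the pseudogene Hist3h2bb-ps, whose log2 fold change was -0.10 (-0.01 without miR-146a-/- HFD replicate 1) and did not pass the test. Limma voom on whole reads did not call Hist3h2ba (adjusted p = 0.0771).

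Leaving out a library changed the calls of several of these genes. Slc36a1, Gpx3 and Hist3h2ba were not called over both diets without, in turn, 7, 8 and 4 of the 12 libraries, with adjusted p-values up to 0.0716, 0.0870 and 0.0684. The direction was kept in every such fit.

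The means compared on NCD and on HFD share no library, so each can be read in the libraries of the other. The calls, however, use a spread estimated from all 12 libraries, so this reading is not independent of them. With only the HFD groups in the fit, 1 member was called on HFD (0.0495% of all genes). Over all 12119 genes tested, the libraries did not overlap between genotypes, in either direction, in 2215 on NCD and 2455 on HFD. Of the 7 members called on HFD, 6 had the same direction on NCD and all 6 had NCD libraries that did not overlap between genotypes. Of the 69 other genes called on HFD, 51 had the same direction on NCD (73.9%) and 25 did not overlap (36.2%). In the reverse reading, both members called on NCD had the same direction on HFD without overlap, as did 10 of the 13 other genes called on NCD (76.9%). The exception among members was Sptbn1, a spectrin of the membrane skeleton. It was at 22.2, 19.8 and 19.2 FPKM in miR-146a-/- NCD, against 18.9, 17.4 and 18.5 FPKM in WT NCD, and at 15.96, 18.4 and 18.7 FPKM in miR-146a-/- HFD, against 24.6, 24.3 and 23.4 FPKM in WT HFD. The miR-146a-/- libraries were thus above WT on NCD and below WT on HFD. The log2 fold change was 0.15 on NCD (adjusted p = 0.837) and -0.43 on HFD (adjusted p = 0.0471), and the HFD call was lost whichever library was left out, with adjusted p-values up to 0.191.

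Over all 238 tested members, 49.6% had the same sign on both diets, against 49.3% of all genes tested. The Pearson correlation of both sets of fold changes was 0.496 across members and 0.266 across all genes, a description over genes that are not independent. Among members it was 0.122 within 5 Mb and 0.55 beyond 5 Mb towards the centromere. On the telomeric side it was 0.623 from 5 to 10 Mb, the bin of 9930111J21Rik2, then 0.63 from 10 to 15 Mb and 0.0981 from 15 to 20 Mb. The weight of single genes in these values was not tested. In 17 of 238 members (7.14%) the libraries did not overlap between genotypes in the same direction on both diets, against 2.29% of all genes tested. Of these, 10 were below WT and 7 above. They were the 9 called members together with Rnf130, Hint1, Cenpv, Snap47, Cyfip2, Mat2b, Ccng1 and Hba-a1, and these further genes did not pass the test over both diets.

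**Figure D3:**
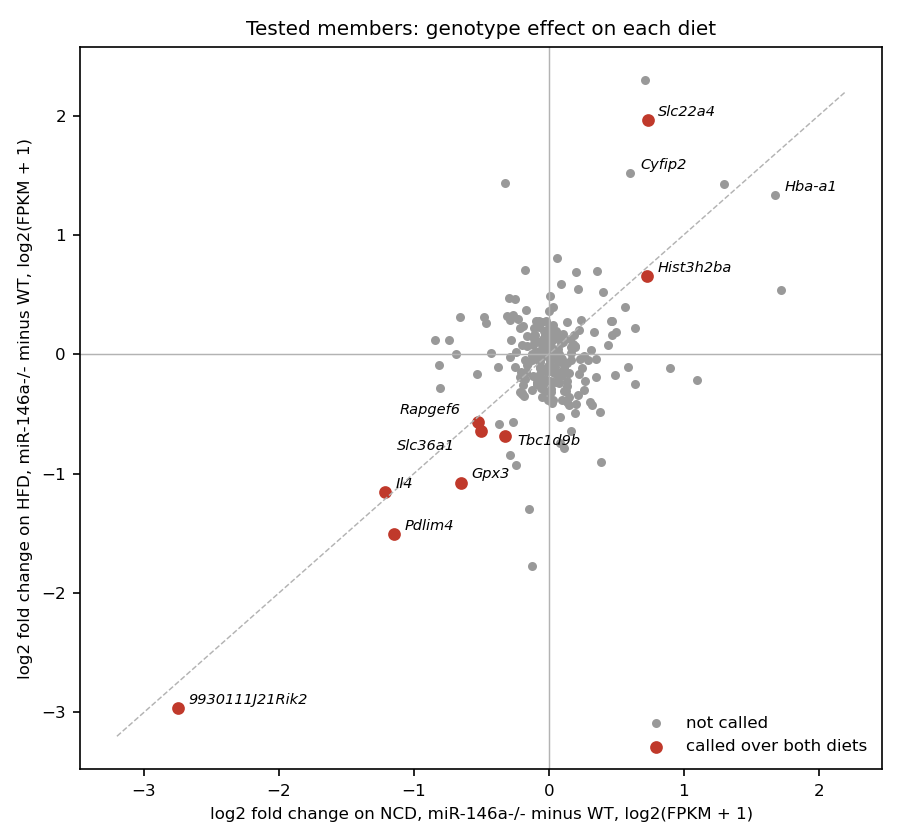
Log2 fold change on HFD (vertical axis) against that on NCD (horizontal axis), miR-146a-/- minus WT, for the 238 tested members, with the dashed line marking equal effects. The 9 members called over both diets (red) lie at the lower left or the upper right, while the grey cloud around 0 has the same sign on both diets in 49.6% of members when the red points are counted with it.

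For the difference between the genotype effects on HFD and NCD, limma called 0 members, where the share of all genes tested is 0.0%. At an unadjusted p under 0.05 there were 39 such members (16.4%), against 12.2% of all genes tested. Limma voom also called 0, and a fit with array quality weights called 2, Sptbn1 and Rnf145. The share of all genes in that fit is not given here.

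Calls were then counted by distance. Within 2 Mb 0 of 7 tested members were called over both diets, from 2 to 5 Mb 0 of 14, from 5 to 10 Mb 2 of 59 (3.39%) and from 10 to 20 Mb 7 of 158 (4.43%). Within 5 Mb, where limma and limma voom called 0 of 21 over both diets, 6 members had an unadjusted p under 0.05 (28.6%), against 11.3% of all genes tested. For HFD alone the count near the hairpin depended on the fit. Limma voom called 7 telomeric members on HFD, of which 6 lay beyond 5 Mb (0.998% of all genes called). The filter at an average of 5 FPKM gave 6, of which 5 lay beyond 5 Mb (1.02% of all genes called). On the telomeric side 9 of 190 tested members were called (4.74%). Towards the centromere limma called 0 of 48 over both diets, with 8 at an unadjusted p under 0.05 (16.7%, against the same 11.3%). The rest of chromosome 11 had 1 call in 788 genes (0.127%) and the other chromosomes 39 in 11083 (0.352%).

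A more lenient measure showed a wider spread. At an unadjusted p under 0.01 over both diets there were 26 members (10.9%), against 3.55% of all genes tested and 3.17% of the rest of chromosome 11. The share was 23.8% (5 of 21) within 5 Mb and 9.68% (21 of 217) beyond it. In bins of 5 Mb on the telomeric side it was 17.6% of 17 genes, 11.5% of 52, 27.3% of 44 and then 2.60% of 77. The bin from 0 to 5 Mb towards the centromere held 2 of 4 genes, and without this thinly filled bin 3 of 17 members within 5 Mb passed. Farther towards the centromere, 1 of 44 members passed. The median absolute log2 fold change over both diets was 0.18 within 5 Mb and 0.11 beyond it, against 0.09 over all genes tested.

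**Figure D4:**
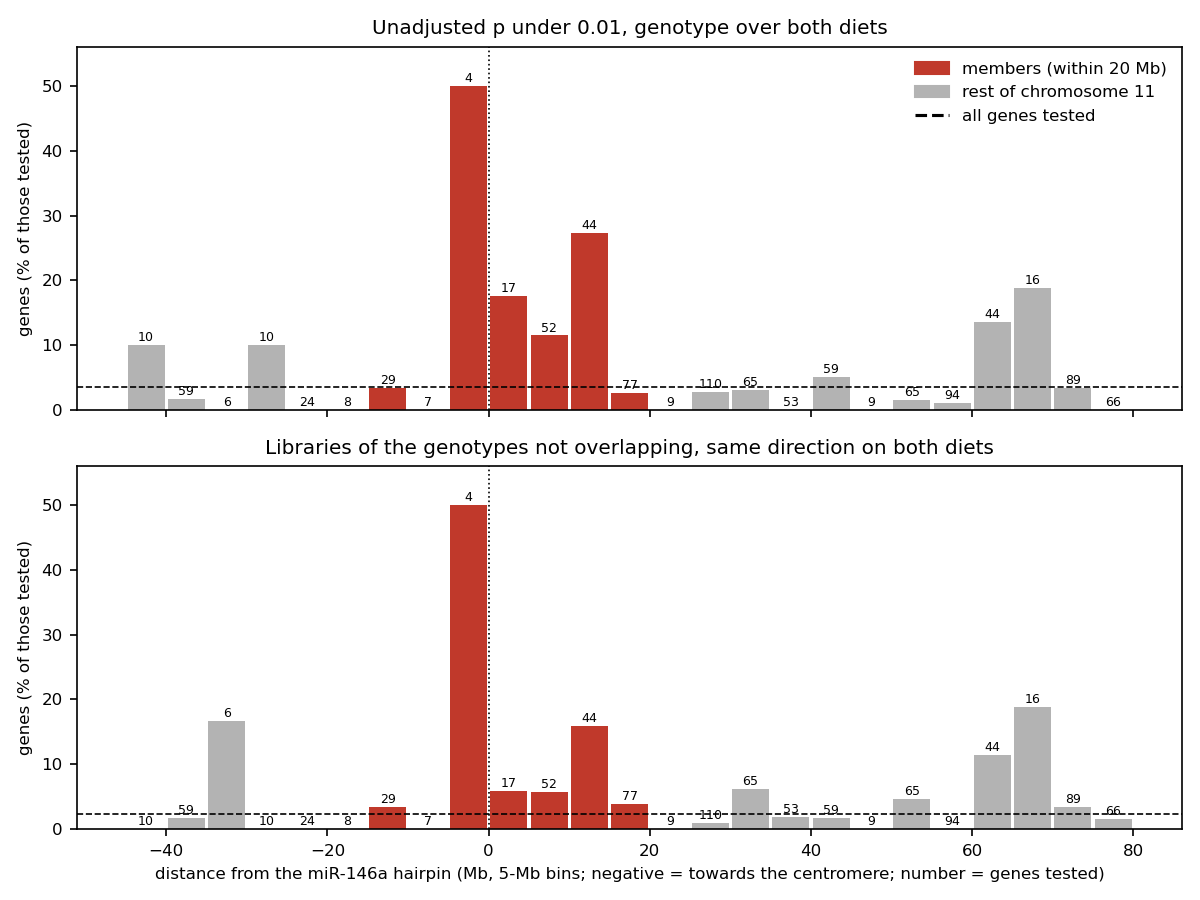
Share of tested genes, in 5-Mb bins of distance from the miR-146a hairpin along chromosome 11, that had an unadjusted p under 0.01 over both diets (top) or libraries that did not overlap between genotypes in the same direction on both diets (bottom). Numbers are genes tested per bin and dashed lines the shares over all 12119 genes (3.55% and 2.29%); among members (red) the bins from 0 to 15 Mb on the telomeric side and the bin of 4 genes next to the hairpin towards the centromere lie above the line in both panels, and some bins of the rest of the chromosome (grey) do as well.

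Chromosome 11 as a whole had 1.06% of its 1036 tested genes called over both diets. Chromosome 3 had a higher share, 1.65% of 545 genes. The bins from 60 to 70 Mb on the telomeric side, outside the window, also stood above the share of all genes, with 13.6% of 44 and 18.8% of 16 genes at an unadjusted p under 0.01, but 0 of these genes were called.

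The tested members next to the hairpin were Pttg1, the anaphase inhibitor securin, Slu7, a splicing factor, C1qtnf2, a secreted C1q and TNF related protein, and Pwwp2a, a chromatin reader, all on the telomeric side within 0.31 Mb. Pttg1, at 0.05 Mb, was at 9.36, 7.16 and 7.72 FPKM in miR-146a-/- NCD, against 9.87, 8.70 and 11.7 FPKM in WT NCD. The HFD values were 8.11, 4.84 and 6.25 FPKM in miR-146a-/-, against 10.4, 13.2 and 12.8 FPKM in WT. The groups overlapped on NCD and did not overlap on HFD. Its log2 fold change over both diets was -0.56 ± 0.12 (SE, adjusted p = 0.0950). Leaving out miR-146a-/- HFD replicate 1 gave -0.65 (adjusted p = 0.0159). Slu7, C1qtnf2 and Pwwp2a had log2 fold changes of 0.05, 0.18 and -0.05 over both diets, with adjusted p-values of 0.708 or more. Without miR-146a-/- HFD replicate 1, Slu7 was at 0.03 and Pwwp2a at 0.01.

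The nearest tested members towards the centromere, at 2.63 to 2.70 Mb, were Ccng1, Nudcd2, Hmmr and Mat2b. Ccng1 encodes cyclin G1. It was at 62.4, 61.1 and 63.0 FPKM in miR-146a-/- NCD, against 47.3, 54.1 and 58.5 FPKM in WT NCD, and at 61.8, 54.1 and 59.4 FPKM in miR-146a-/- HFD, against 49.8, 52.2 and 49.5 FPKM in WT HFD. Mat2b encodes a regulatory subunit of the enzyme that makes S-adenosylmethionine. It was at 17.1, 17.5 and 20.4 FPKM in miR-146a-/- NCD, against 13.1, 14.9 and 14.9 FPKM in WT NCD, and at 18.0, 16.3 and 15.6 FPKM in miR-146a-/- HFD, against 14.5, 15.05 and 13.9 FPKM in WT HFD. Neither gene overlapped between genotypes on a diet, but neither passed the test over both diets, with log2 fold changes of 0.21 for Ccng1 (adjusted p = 0.225) and 0.26 for Mat2b (adjusted p = 0.154). Nudcd2 and Hmmr had log2 fold changes of 0.10 and 0.09 and overlapped between genotypes.

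At the edges of the window, the last tested genes inside were Ahsa2 at 19.9 Mb (log2 fold change -0.18) and Pmp22 at 19.8 Mb (-0.22), and the first outside were Usp34 at 20.07 Mb (0.02) and Cox10 at 20.6 Mb (0.15). Without miR-146a-/- HFD replicate 1 the value of Pmp22 was -0.04 and that of Usp34 -0.003.

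The stretch from 9.9 to 12 Mb on the telomeric side holds the type 2 cytokine cluster (Il4, Il13, Il5, Csf2), the interferon regulatory factor Irf1 and the organic cation transporters. It contained 27 tested members, of which 6 were called over both diets, where the share of all genes is 0.413%. The bounds of this stretch are not those of the distance bins and were set with the results known. Its count therefore supports nothing by itself. Genes that were called stood beside genes that were not. Irf1 itself was at 93.6 to 178 FPKM in miR-146a-/- and 118 to 174 FPKM in WT, with a log2 fold change of 0.02, and of 0.15 without miR-146a-/- HFD replicate 1. Rad50, between Il4 and Il5, had a log2 fold change of 0.09 and was not called either. Hint1, a nucleotide hydrolase at 11.5 Mb, was at 138 to 152 FPKM in miR-146a-/- and 114 to 129 FPKM in WT, with a log2 fold change of 0.26 (adjusted p = 0.0886), and of 0.25 (adjusted p = 0.0464) without that library. Il5, the cytokine of eosinophils, was at 0.116 to 3.58 FPKM in miR-146a-/- and 0.171 to 3.11 FPKM in WT, and had a log2 fold change of -0.15.

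**Figure D5:**
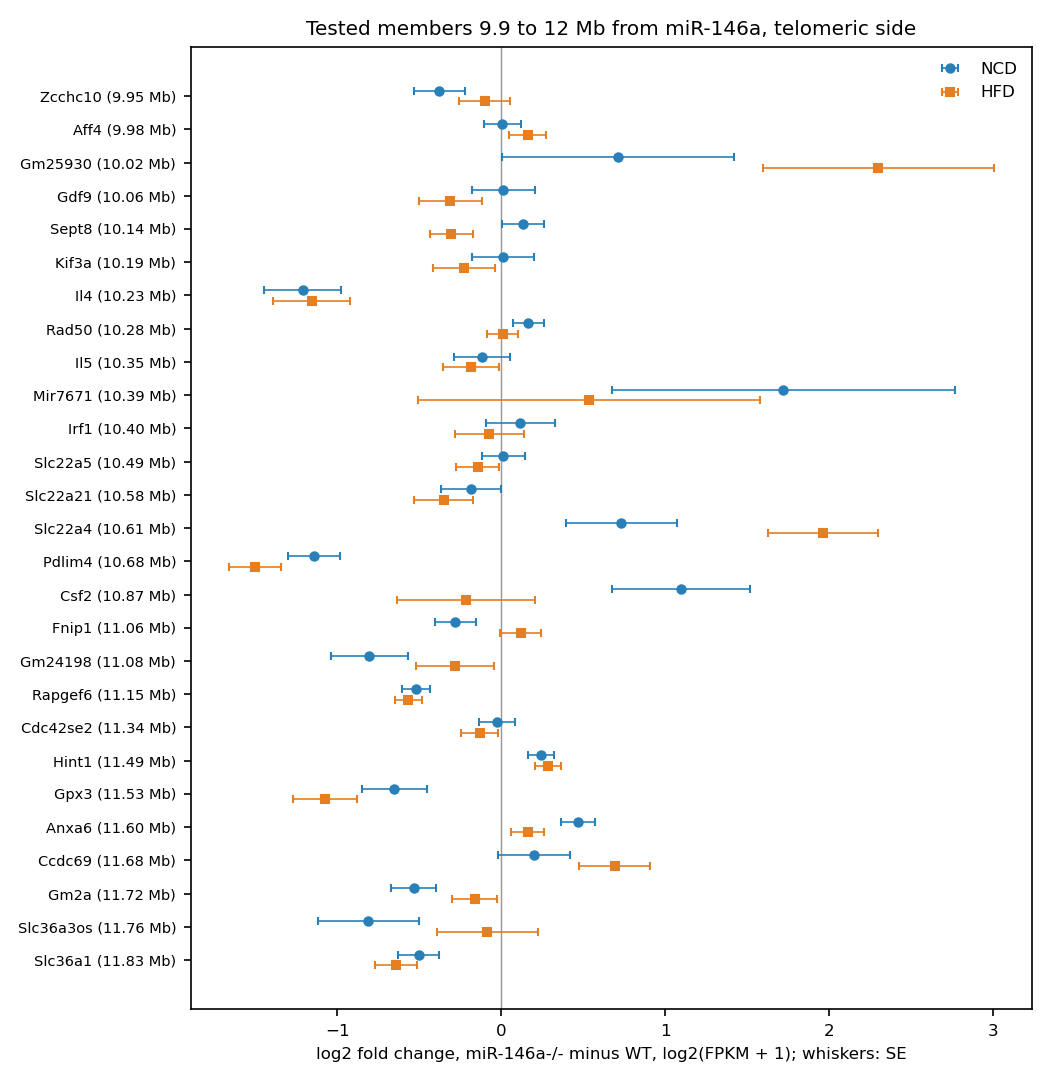
Log2 fold change, miR-146a-/- minus WT, with SE (whiskers), of the 27 tested members from 9.9 to 12 Mb from miR-146a on the telomeric side, in order of distance, on NCD (blue circles) and HFD (orange squares). Il4, Pdlim4, Rapgef6, Gpx3 and Slc36a1 lie left of 0 and Slc22a4 right of 0 on both diets, with genes such as Irf1, Rad50 and Slc22a5 near 0 between them.

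Lyrm7, a mitochondrial assembly factor in the same stretch at 11.5 Mb, was among the 56 members below 1 FPKM and was named after its values were seen. It was at 0.728, 1.14 and 1.03 FPKM in miR-146a-/- NCD, against 0.212, 0.106 and 0.0519 FPKM in WT NCD. The HFD values were 0.942, 0.914 and 0.990 FPKM in miR-146a-/-, against 0.122, 0.341 and 0.278 FPKM in WT. The genotypes did not overlap on either diet, with 226 reads over the 6 miR-146a-/- libraries and 43 over the 6 WT libraries. Without the filter on low values it was called over both diets (log2 fold change 0.73, adjusted p = 0.00201) and on each diet. That fit called 0.37% of all 15393 genes over both diets. Of the 56 members, D930048N14Rik also did not overlap in the same direction on both diets, at 0.353 to 0.477 FPKM in miR-146a-/- and 0 to 0.282 FPKM in WT. The share of such genes among all genes below the filter is not given here, so these cases cannot be read as particular to the members.

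The members were also grouped by function. The shares of all genes to set beside these counts are 0.248% for genes that fell over both diets and 0.165% for genes that rose. Of 17 tested interferon and innate immune genes, 9930111J21Rik2 fell over both diets and 16 did not pass the test. Nlrp3, the inflammasome sensor, had a log2 fold change of 0.38 (adjusted p = 0.324), and Mapk9, a JNK kinase, one of 0.11. The median of the list was 0.01, against 0.00 over all genes tested.

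Of 19 tested genes of the cytokine cluster and its neighbours, 3 fell (Il4, Pdlim4 and Rapgef6), 1 rose (Slc22a4) and 15 did not pass, with a median of -0.09. Of 15 tested genes of lipid, amine and one-carbon metabolism, 2 fell (Gpx3 and Slc36a1), 1 rose (Slc22a4) and 12 did not pass, with a median of -0.02. Of 12 tested genes of the secretory pathway and matrix, Pdlim4 fell and 11 did not pass, with a median of -0.11. Anxa6, a calcium-dependent membrane binder, and Canx, a chaperone of the endoplasmic reticulum, had log2 fold changes of 0.31 and -0.21 in this list. Without miR-146a-/- HFD replicate 1, Anxa6 was called over both diets (0.38, adjusted p = 0.00228).

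No gene passed the test over both diets among 12 leukocyte signalling and surface genes, 11 cell division genes, 16 RNA and translation genes, 12 ubiquitin and proteasome genes and 2 erythroid genes. Their medians were 0.25, 0.04, 0.06, 0.01 and 1.43. The highest value among leukocyte genes was that of Cyfip2, a subunit of the actin-regulating WAVE complex at 2.82 Mb. It was at 6.30, 3.06 and 4.14 FPKM in miR-146a-/- NCD, against 2.56, 2.45 and 2.52 FPKM in WT NCD. HFD samples held 14.9, 3.31 and 4.10 FPKM in miR-146a-/-, against 1.11, 1.26 and 2.10 FPKM in WT. Its highest value was again in the library with the highest neutrophil markers. Over both diets the log2 fold change was 1.06 (adjusted p = 0.228), and without that library 0.77 (adjusted p = 0.0456). Lcp2 and Grap, adaptor proteins of lymphocyte and myeloid receptors, had log2 fold changes of 0.34 and -0.33, and of 0.20 and -0.18 without that library.

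The alpha globin genes Hba-a1 and Hba-a2, 11.1 Mb towards the centromere, had log2 fold changes over both diets of 1.504 (adjusted p = 0.247) and 1.36 (adjusted p = 0.288). Hba-a1 was at 7.88, 3.03 and 2.00 FPKM in miR-146a-/- NCD, against 0.235, 0.589 and 0.689 FPKM in WT NCD, and at 28.8, 3.84 and 4.50 FPKM in miR-146a-/- HFD, against 2.71, 2.27 and 3.08 FPKM in WT HFD. Of the erythroid markers outside the window, Hbb-bs, Hbb-bt and Alas2 had log2 fold changes over both diets of 1.73, 1.27 and 0.93 and did not pass the test (adjusted p = 0.281, 0.349 and 0.324). The 5 erythroid markers, which include Hba-a1 and Hba-a2, summed to 20.4 to 93.3 FPKM in miR-146a-/- NCD, against 5.45 to 15 FPKM in WT NCD, and to 45.2 to 262 FPKM in miR-146a-/- HFD, against 18.8 to 43.0 FPKM in WT HFD. Among the other lists, Cenpv (-0.47), Mrpl22 (0.37), Larp1 (0.14), Rars (0.11), Skp1a (-0.20), Ubb (-0.16) and Cops3 (0.13) had the smallest p-values and none passed the test.

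Loss of a miRNA removes repression of mRNAs that carry a match to its seed. The match searched was AGTTCTC, in the longest annotated 3′ UTR of each gene (of equal lengths, the first transcript by identifier), on the transcribed strand. It was found in 24 of 200 tested members with an annotated 3′ UTR (12%), against 12.4% of 10673 genes tested. The 24 members had a median log2 fold change over both diets of -0.03, and the 176 members without a match -0.01. Their median 3′ UTR was longer, 2266 bases against 1017. Of the 9 called members, Rapgef6 and Slc36a1 held the match, and both were lower in miR-146a-/- ATMs. Ccng1, Gm2a and Sptbn1 held it as well, and Gm2a, with a log2 fold change of -0.35 over both diets (adjusted p = 0.224), was called without miR-146a-/- HFD replicate 1 (-0.44, adjusted p = 0.00781). The sites of the called genes are shown from GENCODE vM21 (GRCm38) transcripts, with the match in capitals.

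Rapgef6 seed match: cacattcaagctcagAGTTCTCcccctgta

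Slc36a1 seed match: tgacgatgggctctcAGTTCTCctaccgtt

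Diet was compared over both genotypes in the same libraries, as a contrast in which the genotypes are balanced. Of 238 members 13 were called (5.46%), against 4.55% of all genes tested, and 25 had an unadjusted p under 0.01 (10.5%), against 8.65% of all genes. Of the 13, 12 were lower on HFD, where the share of all genes is 3.56%. By distance, limma called 0 of 21 within 5 Mb and 13 of 217 beyond it (5.99%). Il5 had the smallest p, at 0.116 to 0.455 FPKM on HFD and 1.90 to 3.58 FPKM on NCD (log2 fold change -1.59, adjusted p = 8.00e-05). Csf2, which encodes the growth factor GM-CSF, was at 0.987 to 4.81 FPKM on HFD and 5.38 to 17.4 FPKM on NCD (-1.69, adjusted p = 0.0136). The 6 mast cell markers were all lower on HFD, with a median log2 fold change of -2.75 and 6 of 6 called, and their part in these differences was not tested. In contrast, Il4 was not among the 13, with a log2 fold change of -0.14 (adjusted p = 0.714), and of -0.06 without miR-146a-/- HFD replicate 1. Hist3h2ba was the 1 member called both for diet and for genotype over both diets, lower on HFD (-0.63, adjusted p = 0.00819) and higher in miR-146a-/-.

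Of the 11 genes of the window that are not members, 3 passed a test. Tnip1, an inhibitor of NF-kappaB signalling adjacent to Gpx3, was at 12.8 to 29.4 FPKM in miR-146a-/- and 5.16 to 7.64 FPKM in WT (log2 fold change over both diets 1.16, adjusted p = 0.0237). Timd4, a phosphatidylserine receptor of resident macrophages, was called on NCD, at 66.4, 81.1 and 69.6 FPKM in miR-146a-/- and 28.3, 41.0 and 34.5 FPKM in WT (1.05, adjusted p = 0.0388). Tgtp2, an interferon-inducible GTPase, was called on HFD, at 0.121, 1.18 and 0.884 FPKM in miR-146a-/- and 3.02, 2.51 and 5.68 FPKM in WT (-1.45, adjusted p = 0.0470). These calls were lost when, in turn, 8, 6 and 11 of the 12 libraries were left out one at a time. With these genes put back, the count over both diets became 10 of 248 (4.03%).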

How the data were processed

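RNA-seq of sorted ATMs was deposited as 1 table of FPKM per gene and library. The authors' FPKM values scale reads by the tabulated gene length and the library's counted reads; multiplying back gave whole reads for all 184716 values within 1e-06 reads. Of tools and builds, Novoalign, DESeq2 and mm10 stand in the submitters' processing notes, with neither version nor role. Gene starts in the table count from 0 and were shifted to count from 1.

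Log2(FPKM + 1) of genes averaging 1 FPKM or more was modelled in R 4.3.3 by limma 3.58.1 (lmFit, then eBayes with trend and robust set, statmod 1.5.0), with a mean for each group over all 12 libraries and Benjamini-Hochberg adjustment over 12119 genes. No value was imputed. The fit was tested on simulated data. Distance is from the hairpin to the gene start. Members and gene lists were chosen with earlier results of these data known, and support nothing by themselves. Genes named are the 4 nearest tested members on each side, those called for genotype (at most 12 each way), the 3 of each list with the smallest p over both diets, the edge genes, and called genes left out by the rule. Chosen after their values were seen: the uncalled genes whose libraries do not overlap, Slc22a5, Irf1, Rad50, Il5, Csf2, Hint1, Gm2a, Rnf145, Lyrm7, D930048N14Rik and the copies of 9930111J21Rik2.

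Each fit was repeated with other filters (none, or an average of 5 FPKM), a pseudocount of 0.1, quantile or median-ratio scaling, array quality weights, limma voom on the whole reads, a plain eBayes, a replicate block, the compared groups alone, the 11 left-out genes put back, and each library left out. Python 3.11.15 with numpy 2.4.6, pandas 2.3.3, scipy 1.17.1 and matplotlib 3.10.9 was used for summaries and figures. Intervals are SEs of the fit, and depth limits low genes such as Il4 and Lyrm7.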

Additional observations from a re-analysis of the deposited data

Results flagged for a closer look

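Sptbn1, 13.3 Mb towards the centromere, drew attention because every miR-146a-/- library was above every WT library on NCD and below every WT library on HFD. The genotype effect on HFD minus that on NCD was -0.58 on the log2 scale (unadjusted p = 4.02e-04), but it did not pass the threshold over all genes (adjusted p = 0.175). Array quality weights called the difference (adjusted p = 0.0396). Such opposite separation was seen in 5 of 238 members (2.10%), the same share as in all genes tested (255 genes, 2.10%).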

How the results depend on the processing

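The counts rest on 3 pools per group, and no alternative run turned the direction of a called member. With array quality weights, 10 members were called on NCD, 24 on HFD, 21 over both diets (3 within 5 Mb and 18 beyond), 2 for the difference between diets and 46 for diet; the shares of all genes also rose, to 0.545% on NCD, 4.90% on HFD and 2.26% over both diets. With only the groups compared in the fit, 8 were called on NCD and 1 on HFD (0.470% and 0.0495% of all genes). Replicate numbers were shared between groups. Deviations of same-numbered libraries correlated weakly (r from -0.054 to 0.123, with 2 of 18 pairs above 0.1), and differently numbered pairs reached -0.149 and 0.142. Whether same-numbered libraries were handled together cannot be told from these values, and the main fit used no pairing. With the replicate block 1 member was called on NCD, 6 on HFD, 9 over both diets and 11 for diet. The shares of all genes were 0.124% on NCD, 0.784% on HFD and 0.388% over both diets. When each library was left out in turn, the members called ranged from 1 to 7 on NCD, 3 to 6 on HFD, 4 to 15 over both diets (0 to 2 within 5 Mb and 4 to 13 beyond), and 5 to 30 for diet. The shares of all genes ranged from 0.0413% to 0.445% on NCD, 0.0989% to 0.913% on HFD and 0.173% to 1.11% over both diets. The cause of these differences was not tested, beyond the fewer libraries in the fits. Shares of all genes for diet, and for the difference between diets, are not given for the alternative runs. Those counts can therefore not be read as particular to the members. 9930111J21Rik2 was called on each diet in every alternative that tested it (its mean is under 5 FPKM), and Pdlim4, Rapgef6 and Tbc1d9b were called over both diets in every alternative run. Scaling moved the median of all genes by under 0.1 on the log2 scale.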
